A study of Mus musculus with 16 samples.

Results

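Sorbitol dehydrogenase (Sord) and 8 aldo-keto reductases were followed in GFP+ intestinal stem cells (ISCs) of mice after vertical sleeve gastrectomy (VSG) or sham surgery. They were Akr1a1, Akr1b3, Akr1b7, Akr1b8, Akr1c12, Akr1c13, Akr1c14 and Akr1c19. These 9 of the 48440 genes listed were selected on their differences between VSG and sham in these same libraries, so every difference between VSG and sham given for them is a description and carries no test. The mice were female Lgr5-EGFP animals, which make green fluorescent protein from the Lgr5 gene, a marker of stem cells, and both surgical groups had eaten a high-fat diet for 16 weeks before surgery. The methods give an age of 8 to 16 weeks for all animals of the study and do not say at which step. Cells were sorted 4 weeks after surgery, 15 min after a liquid meal that followed an overnight fast, from 6 cm of the duodenum, the jejunum or the ileum. Dead cells and cells with blood or vessel surface markers had been gated out. Each of the 16 libraries is 1 segment of 1 mouse: 4 VSG and 2 sham mice gave both the duodenal and the jejunal libraries, and 2 VSG and 2 sham mice gave the ileal ones. The 7 mice kept their replicate numbers across segments, so that VSG replicate 1 is the same mouse wherever it is named, and a number shared by VSG and sham does not mark a pair.

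Aldo-keto reductases use NADPH or NADH to reduce aldehydes and ketones to alcohols. In the polyol pathway, aldose reductase (Akr1b3) turns glucose into sorbitol, and Sord oxidizes sorbitol to fructose. Akr1a1 reduces glucuronate on the route to ascorbate, Akr1b7 and Akr1b8 reduce reactive aldehydes from lipids, and the Akr1c enzymes interconvert hydroxysteroids and ketosteroids and act on foreign carbonyl compounds. Several of these enzymes are abundant in intestinal epithelium, which meets sugars, lipid aldehydes and bile acids from food.

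The values are read counts that the authors normalized with DESeq2 within each segment. Many of them, Akr1c13 included, are not whole multiples of what 1 read was worth in a library. A further factor per gene may therefore be part of them, and levels compared between genes or summed over genes would carry it. Akr1c19 was at whole multiples in the ileal libraries but not in the others, so such a factor may differ between libraries. Differences between VSG and sham would then carry it too. The implied depth rests on the genes that do resolve to whole reads. Implied depth was 33.7 to 63.6 M reads for duodenal, 22.2 to 57.8 M for jejunal and 10.9 to 36.4 M for ileal libraries. A few libraries stood apart. Jejunal VSG replicate 1 had 196952 normalized counts of Fabp6, the ileal bile acid binding protein, and jejunal and ileal sham replicate 1 listed Lgr5 at 0. Jejunal sham replicate 1 also had the largest summed count of 12 enterocyte markers, 2455321 against 595334 to 1091144 in the other jejunal libraries. The summed count of 10 stem cell markers was 89349 to 179943 in the duodenum and 6885 to 20868 in the ileum. These ranges are on separate scales, since each segment was normalized on its own. All normalized counts of a library added up to 46867710 to 51745619 for duodenal and 21980005 to 25005464 for ileal libraries. Immune and stromal markers were low in all libraries, with summed counts of at most 1722 and 1567. In bulk libraries of sorted cells, fewer cells of a type and less RNA per cell cannot be told apart.

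In the duodenum, 5 of the 9 genes (Sord, Akr1c12, Akr1c13, Akr1c14 and Akr1c19) had every VSG library below both sham libraries, in the jejunum 4 (Sord, Akr1c12, Akr1c13 and Akr1c19), and in the ileum 1 (Akr1b7). With each library scaled to the same total the duodenal count was 4, since Akr1c13 in sham replicate 1 then lay below VSG replicates 3 and 4, and with quantile normalization it was also 4. Among all genes tested the same placing was found in 8.01%, 6.21% and 11.6%. With all libraries, none of the 9 had every VSG library above the sham libraries, which held for 6.44%, 6.59% and 17.0% of all genes. By limma at the study's thresholds (unadjusted p under 0.05, adjusted p under 0.2, an absolute log2 difference above 0.5 and a mean above 50), 0 of the 9 genes were called in any segment. The share of all duodenal genes called was 0.0237% (4 of 16867), against 0.0126% (2 of 15857) of jejunal and 0% (0 of 13853) of ileal genes. The paper ran DESeq2 at these thresholds and reports many more altered genes in each segment. These low shares therefore belong to limma on log2 values, and why the methods differ was not tested. Unadjusted p-values under 0.05 were found for 455 ileal genes. As the 9 genes were selected on this contrast, nothing is read from these counts.

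**Figure D1:**
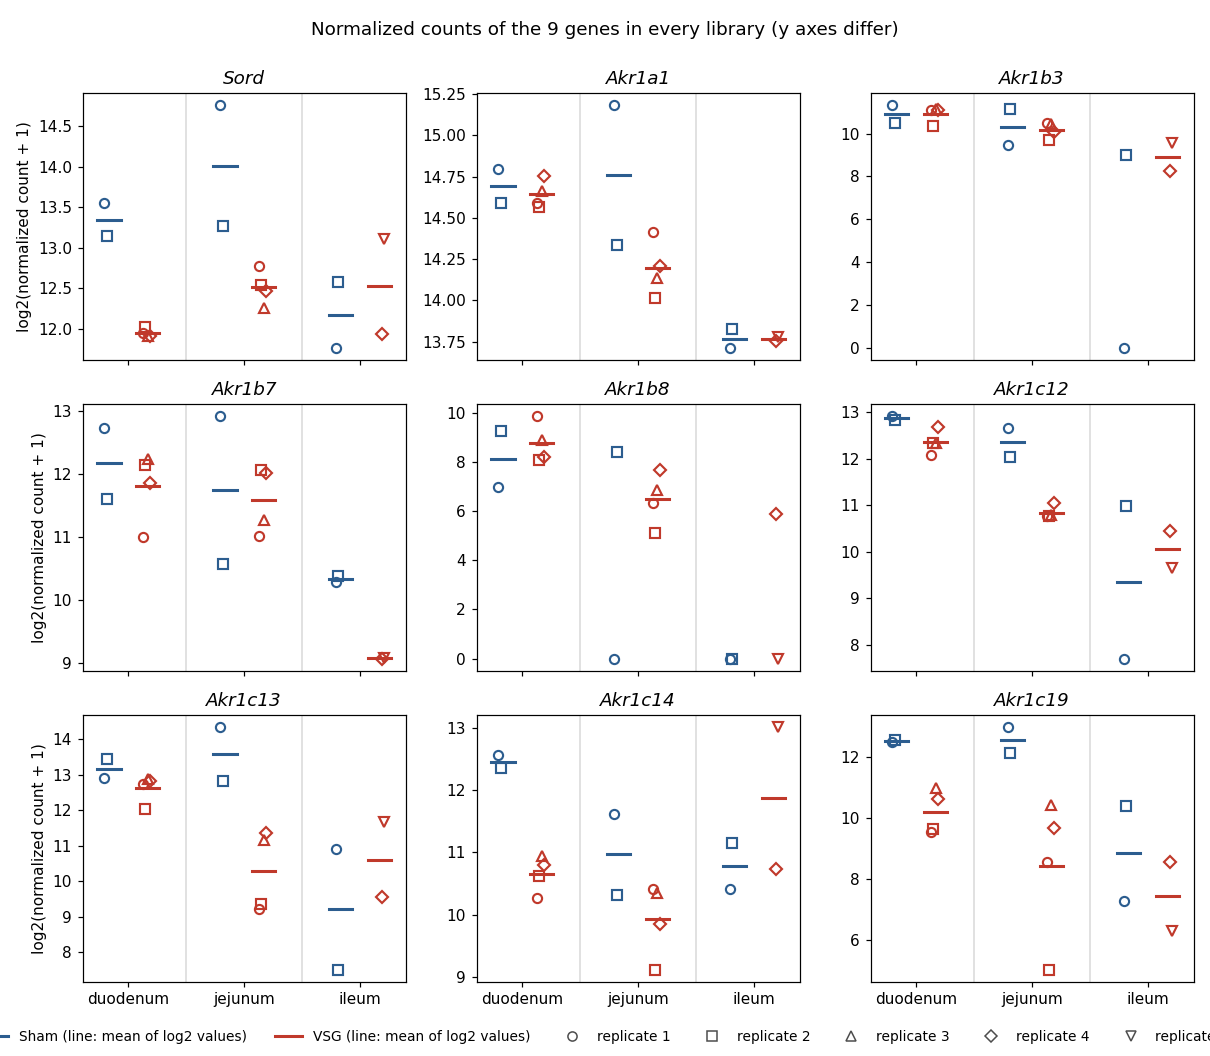
Normalized counts of the 9 genes, as log2(normalized count + 1) on the y axis, by segment on the x axis, with sham in blue and VSG in red. Each symbol is 1 library, its shape gives the replicate number, and the lines are group means, left out where a library is listed at 0. In the duodenum the 4 red symbols of Sord, Akr1c14 and Akr1c19 all sit below the blue ones, while those of Akr1a1 and Akr1b3 overlap them.

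Sord had the least spread of the 9 genes among duodenal VSG libraries. The gene lies at chr2:122234749-122265340 on the plus strand (GRCm38). In the duodenum Sord had 3956, 4158, 3864 and 3857 normalized counts in VSG replicates 1 to 4 and 11966 and 9031 in sham replicates 1 and 2. The coefficient of variation of the 4 VSG values was 3.55%, and the lowest sham library was 2.17-fold above the highest VSG library. The difference on the log2(normalized count + 1) scale was -1.39 ± 0.22 (SE from limma). The VSG mean was 3959 ± 140 (SD, n = 4) and the sham mean 10499 ± 2075 (SD, n = 2).

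In the jejunum Sord had 7024, 5960, 4885 and 5669 normalized counts after VSG and 27713 and 9838 after sham surgery. The groups did not overlap here either, but the sham libraries lay far apart, and the higher of them was sham replicate 1. The difference was -1.50 ± 0.41 on the log2 scale and -0.75 without that library. In the ileum the groups overlapped, with 3914 and 8846 normalized counts after VSG and 3487 and 6121 after sham surgery. Whether the difference in the ileum departs from those in the other segments was not tested.

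Part of the Sord transcript is shared with a pseudogene. Of all stretches of 85 bases, the read length, 24.0% occur identically in Gm6652, which was listed at 72.9 to 533 normalized counts in the duodenum and 88.0 to 994 in the jejunum. Both ranges lie below the lowest Sord value of their segment, but reads could have been split between the pair.

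Akr1b3, the enzyme that makes the sorbitol that Sord uses, showed no such placing. The gene lies at chr6:34302434-34317478 on the minus strand. Duodenal Akr1b3 was at 2205, 1303, 2266 and 2172 normalized counts after VSG and 2585 and 1448 after sham surgery, a log2 difference of 0.00 ± 0.36. In the jejunum it was at 1447, 842, 1385 and 1074 after VSG and 704 and 2298 after sham surgery, a difference of -0.13 ± 0.55, and the 2 sham libraries enclosed all VSG libraries. In the ileum it was listed at 301 and 769 after VSG, at 0 in sham replicate 1 and at 516 in sham replicate 2. Its level is uncertain, because 53.5% of its 85-base stretches occur in other annotated genes, 47.0% in the pseudogene Gm6644 alone, which was listed at 0 to 94.9 normalized counts.

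Akr1a1 was the most abundant of the 9 and had the lowest coefficient of variation over the libraries of each segment. The gene lies at chr4:116636510-116651680 on the minus strand, and none of its 85-base stretches occurs in another gene. Duodenal Akr1a1 was at 24653, 24292, 25960 and 27613 normalized counts after VSG and 28474 and 24671 after sham surgery, a log2 difference of -0.05 ± 0.20. In the jejunum it was at 21849, 16555, 17984 and 18959 after VSG and 37229 and 20699 after sham surgery, a difference of -0.57 ± 0.35. In the jejunum VSG replicate 1 lay above sham replicate 2, so the groups overlapped, and without sham replicate 1 the difference was -0.14. Ileal Akr1a1 was at 13814 and 14040 after VSG and 13426 and 14496 after sham surgery, a coefficient of variation of 3.21% over all 4 libraries.

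Akr1b7 and Akr1b8 are neighbours on chromosome 6, at chr6:34412334-34423142 and chr6:34354119-34368463 on the plus strand, and their coding sequences are 84.9% identical. No 85-base stretch is common to both, so reads of that length could be told apart. Akr1b7 is known to be induced by the bile acid receptor FXR in the intestine. Akr1b7 was at 2057, 4530, 4834 and 3716 normalized counts in the duodenum after VSG and at 6845 and 3113 after sham surgery. In the jejunum it was at 2083, 4287, 2471 and 4152 after VSG and at 7783 and 1525 after sham surgery. In both segments sham replicate 1 was the highest library and the groups overlapped, with log2 differences of -0.36 ± 0.42 and -0.16 ± 0.60. In the ileum Akr1b7 was at 536 and 539 after VSG and at 1244 and 1338 after sham surgery, the closest agreement within groups of any of the 9 genes there. The ileal difference was -1.26 ± 0.70, where the SE comes from a spread that limma shares across genes.

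Akr1b8 was the least abundant. It was at 937, 272, 483 and 297 normalized counts in the duodenum after VSG and at 127 and 619 after sham surgery, a log2 difference of 0.64 ± 0.82 that was -0.50 without sham replicate 1 and 1.77 without sham replicate 2. In the jejunum it was at 79.2, 34.0, 117 and 207 after VSG, at 0 in sham replicate 1 and at 340.0 in sham replicate 2. In the ileum only VSG replicate 4 had a value above 0, 58.6 normalized counts. A value listed at 0 allows up to 3 reads, which is 3.35 normalized counts in jejunal sham replicate 1 and counts sampling error only. The Pearson r of Akr1b7 and Akr1b8 was -0.73 over 16 libraries after centring log2 values within each segment. It was the lowest of all pairs, and these points share depth and normalization. The libraries listed at 0 for Akr1b8 and the difference between VSG and sham are part of this r. Jejunal sham replicate 1, at 0 for Akr1b8, was the highest jejunal library for Akr1b7.

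The 4 Akr1c genes lie together on chromosome 13, in the order Akr1c14 (chr13:4049011-4090688), Akr1c13 (chr13:4191150-4205596), Akr1c19 (chr13:4228700-4252843) and Akr1c12 (chr13:4268176-4279433), the last on the minus strand and the others on the plus strand. The first 60 coding bases of each are printed to show how close the 4 copies are, with capitals at the 23 positions where at least 1 of them differs.
Akr1c12: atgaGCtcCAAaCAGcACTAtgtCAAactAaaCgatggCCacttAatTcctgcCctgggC
Akr1c13: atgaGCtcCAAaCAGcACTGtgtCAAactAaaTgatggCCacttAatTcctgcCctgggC
Akr1c14: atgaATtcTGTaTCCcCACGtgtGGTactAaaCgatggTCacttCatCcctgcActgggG
Akr1c19: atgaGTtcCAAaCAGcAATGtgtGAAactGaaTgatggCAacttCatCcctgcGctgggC
Over all 972 coding bases, 356 positions differ among the 4 genes. Akr1c12 and Akr1c13 are 96.2% identical and each is 77.8% identical to Akr1c19, while Akr1c14 is 72.0% to 73.8% identical to the other 3. Akr1c12 and Akr1c13 differ at 37 coding positions and share a run of 228 identical bases. The 60 bases from coding base 343 to 402 hold the most differences between this pair, 9, which are in capitals.
Akr1c12: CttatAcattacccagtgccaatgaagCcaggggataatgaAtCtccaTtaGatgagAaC
Akr1c13: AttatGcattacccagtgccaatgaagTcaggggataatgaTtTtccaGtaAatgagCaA
Of the 85-base stretches of the Akr1c12 and Akr1c13 transcripts, 14.4% and 14.3% are identical in the other gene, so part of their reads had to be divided between them by the quantification.

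Akr1c14, the mouse homologue of the liver hydroxysteroid dehydrogenase that inactivates dihydrotestosterone, was at 1239, 1571, 1960 and 1773 normalized counts in the duodenum after VSG and at 6014 and 5228 after sham surgery. The lowest sham library was 2.67-fold above the highest VSG library, and the log2 difference was -1.80 ± 0.28. In the jejunum it was at 1357, 557, 1305 and 929 after VSG and at 3142 and 1274 after sham surgery, so that sham replicate 2 fell inside the VSG range and the difference was -1.03 ± 0.55. In the ileum the spread was wider than any difference, with 1711 and 8230 after VSG and 1367 and 2273 after sham surgery.

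Akr1c19, an Akr1c enzyme of broad substrate range, was at 751, 797, 2011 and 1588 normalized counts in the duodenum after VSG and at 5695 and 6030 after sham surgery. The log2 difference was -2.32 ± 0.43, with a mean after sham surgery 4.56-fold that after VSG. Jejunal Akr1c19 was at 379, 31.8, 1380 and 805 after VSG and at 8032 and 4498 after sham surgery. The groups did not overlap, but the 4 VSG libraries themselves ranged widely, and the log2 difference of -4.13 ± 1.23 was -3.00 without VSG replicate 2. In the ileum it was at 373 and 78.2 after VSG and at 154 and 1354 after sham surgery, with overlapping groups.

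Akr1c12 and Akr1c13, hydroxysteroid dehydrogenases of the gut and stomach, had smaller duodenal differences. Duodenal Akr1c12 was at 4330, 5156, 5157 and 6559 normalized counts after VSG and at 7697 and 7297 after sham surgery, a log2 difference of -0.52 ± 0.23. Duodenal Akr1c13 was at 6809, 4191, 7493 and 7190 after VSG and at 7665 and 11072 after sham surgery, a difference of -0.56 ± 0.29. For Akr1c13 the lowest sham library was only 1.02-fold above the highest VSG library.

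In the jejunum the gap was wider for both. Jejunal Akr1c12 was at 1732, 1734, 1776 and 2101 after VSG and at 6473 and 4217 after sham surgery, a difference of -1.51 ± 0.34. Jejunal Akr1c13 was at 596, 657, 2270 and 2632 after VSG and at 20731 and 7232 after sham surgery, a difference of -3.31 ± 0.69. The lowest sham library was 2.01-fold above the highest VSG library for Akr1c12 and 2.75-fold for Akr1c13.

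In the ileum the pair took opposite places. Akr1c12 was at 1400 and 807 after VSG and at 208 and 2029 after sham surgery, and Akr1c13 at 744 and 3235 after VSG and at 1925 and 181 after sham surgery. The library low in one gene was high in the other. The sum of the normalized counts of both genes was 2144 and 4042 after VSG and 2133 and 2210 after sham surgery, and Akr1c12 made up 9.77% of it in sham replicate 1 and 91.8% in sham replicate 2. In the duodenum the sum was 9347 to 13749 after VSG and 15362 and 18369 after sham surgery, and in the jejunum 2328 to 4733 against 27205 and 11449. The groups were apart in each gene in these segments, so they had to be apart in the sum.

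Without the jejunal libraries that stood apart, VSG replicate 1 and sham replicate 1, the jejunal log2 difference of Sord was -0.84. Those of Akr1c12, Akr1c13 and Akr1c19 were then -1.18, -2.20 and -3.76. Among genes that overlapped with all libraries, Akr1a1 was at -0.22, Akr1b3 at -1.09, Akr1b7 at 1.21, Akr1b8 at -1.84 and Akr1c14 at -0.54. The signs of Akr1b7 and Akr1b8 turned, and for Akr1b8 the value with all libraries, 2.30, rests on a sham library listed at 0. Only 1 sham library was left in this setting.

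**Figure D2:**
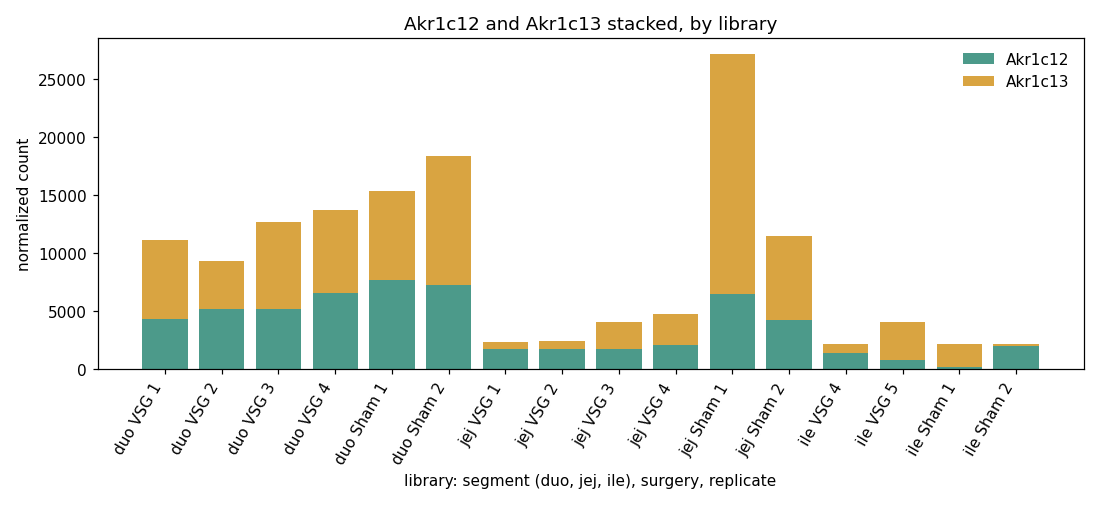
Normalized counts of Akr1c12 (green) and Akr1c13 (yellow) stacked in 1 bar per library, with segment, surgery and replicate on the x axis and the normalized count on the y axis. The 4 jejunal VSG bars reach 2328 to 4733 and the 2 jejunal sham bars 27205 and 11449, while 3 of the 4 ileal bars reach 2133 to 2210 with different shares of the 2 genes.

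**Figure D3:**
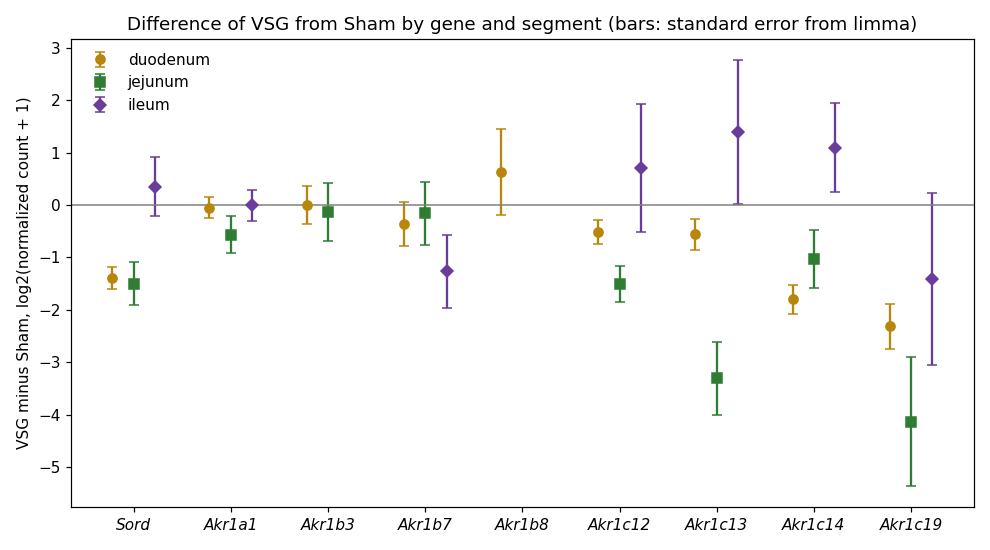
Difference of VSG from sham on the y axis, as log2(normalized count + 1), for each gene on the x axis and each segment by colour, with bars for the standard error from limma. Genes with a library listed at 0 in a segment (Akr1b8 in the jejunum and ileum, Akr1b3 in the ileum) are left out. Sord sits at -1.39 and -1.50 in the duodenum and jejunum and Akr1a1 near 0 in the duodenum.

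Across the 9 genes the median difference was -0.52 in the duodenum and -1.03 in the jejunum, where the median over all genes tested was 0.01 and 0.11. In these segments 7 and 8 of the 9 were below 0, as were 49.3% and 45.0% of all genes tested. In the ileum the median was 0.71 against 0.24 over all genes, with 3 of the 9 and 43.0% of all genes below 0. The ileal median includes the 2 genes with libraries listed at 0. As the 9 genes were selected on this difference, nothing is read from these counts and medians. All 9 genes passed the filter of a mean normalized count above 10 in every segment.

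Markers of mature enterocytes differed between the same libraries. In the duodenum the summed count of the 12 enterocyte markers was 366332, 640080, 753466 and 503941 after VSG and 1247961 and 846048 after sham surgery, so every VSG library was lower, as for Sord and Akr1c14. None of the 12 markers was at 0 in any library. In the jejunum the sums were 595334, 1091144, 613296 and 711078 after VSG and 2455321 and 935980 after sham surgery, and in the ileum 422188 and 775388 against 843048 and 706930, with overlapping groups in both. Duodenal tuft cell markers went the other way, with summed counts of 16968 to 36182 after VSG and 5221 to 12938 after sham surgery. The low duodenal immune sums were also higher after VSG, at 624, 452, 1722 and 231 against 132 and 112, with Cd3e and Nkg7 listed at 0 in all 6 libraries. The summed duodenal stem cell markers overlapped, at 89349 to 179943 after VSG and 114693 to 123422 after sham surgery. In the ileum the stem cell sums were higher after VSG, at 20868 and 14868 against 6885 and 9973, as were the goblet sums, at 192079 and 146610 against 81371 and 136325. The part of these markers in the differences of the 9 genes and of the ileal Fabp6 and Slc10a2 given further on was not tested.

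Over the 16 libraries, centred within segment, the Pearson r with the enterocyte sum was 0.79 for Sord, 0.71 for Akr1b7, 0.61 for Akr1a1, 0.58 for Akr1c14, 0.50 for Akr1c13, 0.36 for Akr1c19, 0.30 for Akr1c12, -0.20 for Akr1b3 and -0.78 for Akr1b8. These values describe libraries that share a normalization and, in part, mice. Nothing was centred within surgery group, so the difference between VSG and sham on which the 9 genes were selected is part of each r. The r of Akr1b8 also includes its libraries listed at 0. Sord and Akr1c14 had the highest r of all pairs of the 9 genes, 0.86, whereas the near-identical Akr1c12 and Akr1c13 had 0.14.

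**Figure D4:**
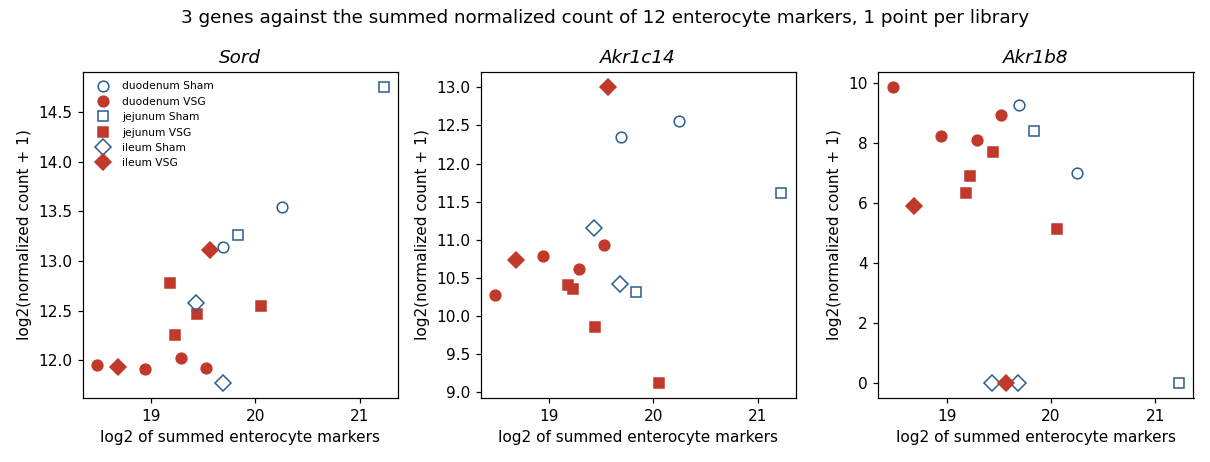
Log2(normalized count + 1) of Sord, Akr1c14 and Akr1b8 on the y axis against log2 of the summed normalized count of 12 enterocyte markers on the x axis, with 1 point per library, shapes for segments and open blue or filled red symbols for sham or VSG. Sord is higher in libraries with more enterocyte marker counts (r = 0.79 within segments) and Akr1b8 is lower (r = -0.78).

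The genes most like each of the 9 were sought among 10704 genes with a mean above 50 in every segment, by the Pearson r of log2 values centred within segment over the 16 libraries. For Sord they were Slc6a20a, an amino acid transporter of the brush border (r = 0.92), and Anxa13, an epithelial annexin (r = 0.91), and Anxa13 was also second for Akr1c14 (0.88) after Afg3l2 (0.89). Akr1c13 was most like Ptgr1 (0.93), a prostaglandin reductase, and Otc (0.92), the urea cycle enzyme ornithine transcarbamylase. Akr1c19 was most like Ugt2b36 (0.83) and Rnf8 (0.81), Akr1c12 like Rnf185 (0.92) and Vapa (0.91), and Akr1b7 like Tbk1 (0.88) and Tmem45b (0.88). Akr1b8 was closest to Ppia (0.97) and Rpsa (0.96), a housekeeping isomerase and a ribosomal protein. In the 12 duodenal and jejunal libraries alone, which still hold jejunal sham replicate 1 at 0, these were 0.98 and 0.94. Akr1a1 was closest to BC030870 (0.92) and Naip2 (0.86). For Akr1b3 they were Anks1 and 5830417I10Rik, both 0.98, but in the 12 duodenal and jejunal libraries alone, without the ileal library listed at 0, r was 0.60 and 0.80. None of these r was centred within surgery group, so each includes the difference between VSG and sham.

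Levels were compared between genes only per kilobase of the longest coding transcript. Akr1a1 came first in each segment, with 18270 normalized counts per kb as its duodenal mean, 15643 as its jejunal mean and 9820 as its ileal mean. In the duodenum it was followed by Akr1c13 (5866), Akr1c12 (4784), Akr1b7 (3265), Sord (2610), Akr1b3 (1440), Akr1c14 (931), Akr1c19 (482) and Akr1b8 (336). Akr1a1 was above all others in every duodenal library, but the ranges of all other neighbours in this order overlapped. In the jejunum the order after Akr1a1 was Akr1c13, Sord, Akr1b7, Akr1c12, Akr1b3, Akr1c14, Akr1c19 and Akr1b8, from 4506 to 95.4 per kb, and here the ranges of all neighbours overlapped. In the ileum Sord came second at 2378 per kb and Akr1b8 last.

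The duodenum and jejunum of the same 6 mice were compared as shares of each library's total, since the tables were normalized separately, as a description without a test. Sord was higher in the jejunum in 6 of 6 mice, by 1.55- to 2.54-fold (median 2.00). Akr1c12 was lower there in 6 of 6 mice, at 0.44 to 0.92 of the duodenal level, and Akr1b8 was also lower in 6 of 6. Akr1c13 was lower in 5 of 6 mice, with sham replicate 1 the exception at 2.97-fold. Akr1a1 differed little, with a ratio of 0.93 to 1.44. In the 3 mice with an ileal library, Akr1b3, Akr1b7, Akr1b8, Akr1c12, Akr1c13 and Akr1c19 were all lower in the ileum than in the duodenum.

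Lists of other genes of the same reactions, 80 genes in all, were chosen by function, with earlier results of these data known, and tested by limma. Because of that choice, counts and p-values of list genes are descriptions. Nothing is read from their shares beside those of all genes. In the duodenum 16 of the 73 list genes tested (21.9%) had an unadjusted p under 0.05 with lower values after VSG and 0 with higher values, where 3.48% and 2.79% of all genes did. In the jejunum these were 12 and 3 of 68, against 2.40% and 3.63% of all genes, and in the ileum 3 and 2 of 64, against 1.19% and 2.09%. Without sham replicate 1 the number in either direction was 10 in the duodenum, where it had been 16, and 4 in the jejunum, where it had been 15. In the ileum, where it had been 5, it was 13 and 9 without VSG replicates 4 and 5. Only Aldh1a1, a retinal dehydrogenase, was called, in the duodenum, where it fell by 2.48 ± 0.35 on the log2 scale (limma adjusted p = 0.196). This call was lost with a pseudocount of 0.5, with either other filter, with each library scaled to the same total, without trend, with the replicate block, and without VSG replicate 2 or 4 or either sham library, with a limma adjusted p of 0.0552 to 0.801 over all alternatives. Aldh1a1 ranged from 1895 to 4281 normalized counts after VSG and from 12507 to 14221 after sham surgery in the duodenum, and its differences in the jejunum and ileum, which did not pass the threshold on adjusted p, were -2.33 ± 0.42 and -1.27 ± 0.42.

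For the other genes below, none passed the threshold on adjusted p, so their values are given as they stand. Among 9 genes of fructose and sorbitol handling, 2 were lower at an unadjusted p under 0.05 in the duodenum. Slc2a5, the apical fructose transporter, was at 2277 to 3532 normalized counts after VSG and 5341 to 9721 after sham surgery, and Glyctk, glycerate kinase, at 68.7 to 574 and 1051 to 2666. In the jejunum Khk, the fructose kinase, was at 6663 to 9995 and 11350 to 26074. Hk2, a hexokinase, was higher after VSG in the jejunum, at 2087 to 3835 against 706 to 819, and Hk1, its housekeeping relative, at 287 to 1402 against 0 and 122. Mlxipl, the carbohydrate response factor ChREBP and among the most abundant of this list, had a duodenal difference of -0.04 ± 0.22.

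Of 9 other aldo-keto reductases, 5 were tested in the duodenum and only Akr1d1, a bile acid reductase, had an unadjusted p under 0.05. Akr1d1 was listed at 0 in all 4 duodenal VSG libraries and at 33.3 and 155 in the sham libraries. Akr7a5 and Akr1e1, the most abundant, had duodenal differences of -0.20 ± 0.25 and -0.87 ± 0.55. On the glucuronate and pentose path, Ugdh, which makes UDP-glucuronate, was at 2133 to 10193 after VSG and 12570 to 17038 after sham surgery in the duodenum and at 3161 to 6210 and 7038 to 18113 in the jejunum. Cryl1, which acts one step after Akr1a1's substrate, had a duodenal difference of -0.40 ± 0.28. In the ileum Xylb, xylulokinase, was listed at 414 and 506 after VSG and at 0 in both sham libraries.

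The list of other aldehyde and carbonyl enzymes held the most genes at an unadjusted p under 0.05, 7 of 18 in the duodenum and 6 of 17 in the jejunum, all lower after VSG. In both segments these included Aldh1a1, Aldh1a7, Rdh7 and Cbr1, in the duodenum also Aldh9a1, Adh4 and Adh6a, and in the jejunum Aldh3a2 and Adh1. Adh4, an alcohol dehydrogenase that oxidizes retinol, was at 310.1 to 843 normalized counts after VSG and 2227 to 7480 after sham surgery in the duodenum. Cbr1, a carbonyl reductase, was at 3923 to 7386 and 10089 to 11952 in the duodenum and at 3871 to 6499 and 7630 to 15663 in the jejunum. In the ileum Adh6a was higher after VSG, at 829 to 3172 against 71.3 to 82.6. Aldh1b1, the most abundant, had differences of -0.30 ± 0.23 in the duodenum and 0.04 ± 0.42 in the jejunum.

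Of 11 hydroxysteroid dehydrogenases and reductases, Hsd17b4, Hsd17b11, Hsd17b13 and Hsd3b3 were lower at an unadjusted p under 0.05 in the duodenum, and Hsd17b4, Hsd17b13 and Hsd3b3 in the jejunum. Hsd3b3 was at 128 to 185 normalized counts after VSG and 841 to 1079 after sham surgery in the duodenum. Of 12 Nrf2 targets, antioxidant genes, 0 reached an unadjusted p under 0.05 by limma in the duodenum, and in the jejunum Gclc, for glutathione synthesis, was at 1108 to 1261 after VSG and 1960 to 2484 after sham surgery. Tkt and Taldo1, the most abundant, had duodenal differences of 0.46 ± 0.27 and -0.17 ± 0.20.

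Among 11 bile acid and xenobiotic receptors and their targets, the ileal pair Fabp6 and Slc10a2, the bile acid binding protein and the bile acid transporter, were lower after VSG in the ileum at an unadjusted p under 0.05. Fabp6 was at 29162 and 72740 after VSG and 135504 and 208801 after sham surgery, and Slc10a2 at 2931 and 7794 against 14638 and 21054. Nr1i3, the xenobiotic receptor CAR, was at 1707 to 3153 after VSG and 4929 to 5927 after sham surgery in the duodenum. Fgf15 was at 51.1 to 13821 in the jejunum after VSG and at 0 and 48.9 after sham surgery, with its highest value in the library that was high in Fabp6. Vdr, the vitamin D receptor and, with Fabp6, the most abundant of this list, had a duodenal difference of -0.34 ± 0.26.

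Promoters from 250 bases before to 50 bases after the start were matched for 8 of the 9 genes in RefSeq (GRCm38.p6). The antioxidant response element core (TGAC, any 3 bases, then GC), searched on both strands, was present in 1 of the 8, Akr1c19, and in 12.4% of 32851 promoters. The inverted repeat of GGTCA spaced by 1 base was in 0 of the 8 and in 0.0396% of all promoters. Only these letters in these windows were searched.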

How the data were processed

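RNA-Seq of sorted GFP+ ISCs was used as 16 libraries, grouped by segment and surgery from the labels. Reads were mapped by the authors to mm10 using STAR 2.5.3a, quantified with Salmon 0.6.0, then normalized with DESeq2 within each segment and left out libraries with low mapping. They deposited a signal value per gene and library, the normalized count. Among genes with a mean above 10, only 34.5% to 43.6% of values above 0 were whole reads within 0.02, so no count test was run. The deposited tables of the authors' own comparison (mean, log2 fold change, standard error, statistic, p-value and adjusted p) were not used.

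Each segment was fitted separately with limma 3.58.1 (R 4.3.3), with trend, on log2(normalized count + 1), keeping genes whose mean exceeded 10, with Benjamini-Hochberg adjustment over all of them. Such differences understate changes of low genes. The step was tested on simulated data. The 9 genes, lists and tests were chosen with earlier results of these data known. From each list, genes called, genes with an unadjusted p under 0.05 and the 2 most abundant are named. The most abundant have the highest mean normalized count over the 16 libraries, not scaled for length. The 2 genes most like each of the 9 are also named. Some genes of the lists are not reported here. Positions are from GENCODE M21 (48058 of 48440 identifiers matched), coding sequences from its transcripts and promoters from RefSeq, where Akr1b3 was not matched. Tables and figures used Python 3.11.15, pandas 2.3.3, Biopython 1.88 and matplotlib 3.10.9. Alternatives were other pseudocounts (0.5 and 10), filters, scalings, no trend, a replicate block and leaving out libraries, and the joint omission of jejunal VSG 1 and sham 1 was added after seeing the data.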

Additional observations from a re-analysis of the deposited data

Results flagged for a closer look

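In groups of 4 libraries, 18 groups in all, the highest or lowest library was set against the range of its group on the log2 scale, and 3 groups exceeded Dixon's 95% critical value for 4 samples. Chance alone passes about 1 group in 20. In the duodenum VSG replicate 2 was lowest for Akr1b3, at 1303 normalized counts against 2172 to 2266 in the other VSG libraries (ratio of gap to range 0.924). The same library was lowest for Akr1c13, at 4191 against 6809 to 7493 (0.835). In the jejunum VSG replicate 4 was highest for Akr1c12, at 2101 against 1732 to 1776 (0.871), where the group still lay below both sham libraries.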

How the results depend on the processing

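Every alternative kept the sign of the differences of Sord, Akr1c12, Akr1c13, Akr1c14 and Akr1c19 in the duodenum, of these and Akr1a1 in the jejunum, and of Akr1b7 in the ileum. Over all 9 genes the sign was kept in 116 of 126 duodenal, 126 of 135 jejunal and 86 of 97 ileal refits. Part of this was fixed in advance. Where the groups did not overlap, leaving out a library could not turn the sign. Other filters and fitting without trend leave the difference of a gene as it was. Counts of genes called were unstable, and the cause was not tested. In the duodenum, where 4 genes were called, 0 were called with a pseudocount of 0.5, without the filter, with a mean above 50, with each library scaled to the same total and with the replicate block, 10 with a pseudocount of 10, 43 without trend, and 0 to 259 when leaving out 1 library. In the jejunum, where 2 were called, 61 were called without trend, 0 with the replicate block, 1 to 2710 without 1 library (2710 without sham replicate 2) and 48 without VSG 1 and sham 1, when 7 of the 9 genes had every VSG library below the remaining sham library. In the ileum, where 0 were called, 3 were called with a pseudocount of 10, 463 without trend and 0 to 631 without 1 library.

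Leaving out 1 library gave 5 to 8 of the 9 genes with VSG below sham in the duodenum (8 without sham replicate 2), 4 to 7 in the jejunum (7 without sham replicate 2) and 1 to 4 in the ileum (4 without sham replicate 1, 2 without VSG replicate 4), where a single library of a group meets that condition more easily. Those with VSG above sham, 0 with all libraries, were then 0 to 1 in the duodenum, 0 to 2 in the jejunum (2 without sham replicate 2) and 1 to 5 in the ileum (5 without sham replicate 2, 4 without VSG replicate 4). The share of all genes meeting either condition was not computed with libraries left out. Nothing is therefore read from these counts, or from the 7 genes without jejunal VSG 1 and sham 1. With 1 library left out, the median of the 9 genes ranged from -0.62 to -0.42 in the duodenum, from -1.68 to -0.76 in the jejunum and from -0.058 to 0.75 in the ileum. With 1 library left in a group, limma takes its spread from the other group. Of the 9 genes, those called under an alternative were Sord and Akr1c14 in the duodenum with a pseudocount of 10 (10 of 16867 genes called) or without sham replicate 1 (259 of 16821) or 2 (47 of 16808), Akr1c14 alone without VSG replicate 1 (12 of 16797), and Sord, Akr1a1, Akr1b8, Akr1c12 and Akr1c13 in the jejunum without sham replicate 2 (2710 of 15609). There Akr1b8 was called in the opposite direction, higher after VSG, against 1 sham library listed at 0. Scaling each library to the same total moved the median of all genes from 0.11 to 0.33 in the jejunum and from 0.24 to 0.35 in the ileum, and turned the sign of Akr1a1 in the duodenum (0.03) and ileum (0.11) and of Akr1b3 (0.095) and Akr1b7 (0.072) in the jejunum.

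The replicate block, which treats VSG and sham mice of the same number as a pair, is no true pairing, since they are different mice. Deviations from the group means of same-numbered libraries correlated at -0.05 and -0.03 in the duodenum and 0.05 and 0.01 in the jejunum. No paired analysis was possible in the ileum because the groups share no replicate number. Depth limits the ileum most, at 10.9 M implied reads in sham replicate 2, and 2 sham mice per segment limit every comparison.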
